A study of Homo sapiens with 18 samples.

Results

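The 29 genes described here encode enzymes of cholesterol synthesis, enzymes of fatty acid synthesis and desaturation, the sterol-responsive transcription factors SREBF1 and SREBF2, and 2 sterol-regulated partners. They were named as a pathway list, chosen with earlier results of these data known, and all 29 were found by symbol among the 58721 genes counted. All 29 also passed the filter on low counts, which kept 21060 genes for testing. Of the 29, 7 act in the mevalonate pathway and the making of isoprenoid units, 11 lead from farnesyl diphosphate to cholesterol, 4 are regulators or carry sterol, and 7 make or desaturate fatty acids.

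Cholesterol is built from acetyl-CoA through mevalonate, isoprenoid diphosphates, squalene and lanosterol. Fatty acids start from the same acetyl-CoA, which ACLY releases from citrate in the cytosol, and are extended by ACACA and FASN before desaturases and elongases shape the chain. When membrane sterol is low, SREBP proteins leave the endoplasmic reticulum with their escort, are cleaved in the Golgi and switch on these genes. SREBF2 is best known for the sterol branch and SREBF1 for the fatty acid branch, and INSIG1 holds both in the endoplasmic reticulum when sterol is plentiful. Many melanomas rely on these routes for membrane lipid, and the balance of saturated and unsaturated fatty acid has been tied to melanoma cell state.

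RNA was sequenced from A375, an established human melanoma cell line bought from ATCC and kept in DMEM with 10% FBS. In control cells the guide RNA was directed at GFP, absent from human cells, and TADA2B, a subunit of the SAGA histone acetyltransferase complex, was knocked out with 2 guides in separate groups. Each of these 3 backgrounds was profiled without and with SOX10 overexpressed, which encodes a neural crest transcription factor that drives melanocyte genes, and this gave 6 groups of 3 libraries. The series text names knockout, SOX10 overexpression and their combination as the states compared. All 6 groups share the parental line and carry a guide. Whether a knockout group was a clone or a pool, and which promoter and sequence the SOX10 construct had, is not stated. The labels number the libraries 1 to 3 and do not say that they came from separate cultures, so p-values measure only the spread between these libraries, which may be technical.

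Total counts ran from 58573910 to 79874237 per library. Levels are CPM, the count of a gene scaled to a fixed total, on library sizes adjusted with TMM factors, and error is the SD of 3 libraries. TADA2B, the targeted gene, lay between 32.2 and 32.8 CPM in control cells, between 25.6 and 26.4 CPM with guide 1 and between 27.5 and 30.2 CPM with guide 2. Counts over the whole gene do not show whether its reading frame was disrupted. SOX10 lay between 341 and 364 CPM in control cells and between 451 and 454 CPM with the construct, fell to between 81.2 and 87.0 CPM with guide 1 and between 39.9 and 46.1 CPM with guide 2, and reached 281 to 307 and 240 to 251 CPM when the construct was added to them. A list of 6 melanocyte lineage markers, of which TYR was nearly absent in all groups, summed to 55.8 to 57.3 CPM in control cells and 86.6 to 98.5 CPM in the knockouts, where 2 rose and 3 fell, and to 274 to 282 CPM in control-guide cells with SOX10, where 3 rose and 0 fell. The sum of 6 fibroblast markers was between 6.76 and 8.87 CPM in control libraries, between 38.6 and 42.3 CPM in those of guide 1 and between 42.5 and 45.4 CPM in those of guide 2, where 5 of the 6 rose. The sum of 5 epithelial markers was between 164 and 165 CPM in control libraries, between 225 and 238 CPM in those of guide 1 and between 230 and 248 CPM in those of guide 2, where 3 of 4 tested rose and 1 fell, and CDH1, the epithelial cadherin, was at 0 in control cells. With SOX10 added to control-guide cells, fibroblast markers summed to 13.2 to 13.7 CPM (3 rose, 1 fell) and epithelial markers to 131 to 132 CPM (0 rose, 3 fell). Of all genes tested, 28.6% rose and 29.5% fell in the knockout, by the mean of both guides as for the marker counts. The shares with SOX10 in control-guide cells were 17.3% and 17.2%. With SOX10 added to guides 1 and 2 in turn, melanocyte markers summed to 108 to 118 and 80.9 to 85.9 CPM, fibroblast markers to 48.0 to 48.6 and 54.0 to 55.5 CPM, and epithelial markers to 182 to 207 and 196 to 206 CPM. By the mean of both guides, SOX10 raised 3 melanocyte markers and lowered 1, where 28.1% of all genes went each way. Fibroblast markers split into 2 that rose and 4 that fell, and epithelial markers into 1 and 3. The fibroblast sums thus moved against most of their markers, as did the melanocyte sum with guide 2. In the knockouts without SOX10 the melanocyte sum also rose while 3 of 5 tested markers fell. The part of these markers in the results below was not tested. Markers of adipocytes or hepatocytes, cells rich in lipid synthesis, summed to at most 0.263 CPM in any library, and leukocyte markers to at most 0.236 CPM. Pairs of libraries within a group differed by a chi-square over degrees of freedom of 3.54 to 11.8, and guide 2 replicate 2 stood apart, at 11.8 and 10.4 against its partners, which gave 4.60 between them.

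The promoters of the members that rose and fell most in the knockout, and that of SREBF2, are shown so that their motifs can be compared. Each runs 5′ to 3′ on the gene's strand from 250 bases before to 50 bases after the RefSeq start on GRCh38.p14. Capitals mark the NF-Y box CCAAT, the GC box GGGCGG and the sterol regulatory element consensus TCACNCCAC, each searched on both strands. STARD4 lies at chr5:111512486-111512785 on the minus strand, FADS1 at chr11:61816954-61817253 on the minus strand and DHCR7 at chr11:71448344-71448643 on the minus strand. FADS2 lies at chr11:61816154-61816453 on the plus strand, HSD17B7 at chr1:162790452-162790751 on the plus strand, SREBF1 at chr17:17836937-17837236 on the minus strand and SREBF2 at chr22:41832855-41833154 on the plus strand. The last 2 GC boxes of SREBF2 overlap by a base.
STARD4: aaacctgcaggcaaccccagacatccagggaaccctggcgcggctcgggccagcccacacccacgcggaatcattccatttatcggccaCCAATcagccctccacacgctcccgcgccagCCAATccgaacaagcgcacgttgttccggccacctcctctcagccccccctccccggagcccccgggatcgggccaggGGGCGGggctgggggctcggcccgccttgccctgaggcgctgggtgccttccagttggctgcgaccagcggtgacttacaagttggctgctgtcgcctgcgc
FADS1: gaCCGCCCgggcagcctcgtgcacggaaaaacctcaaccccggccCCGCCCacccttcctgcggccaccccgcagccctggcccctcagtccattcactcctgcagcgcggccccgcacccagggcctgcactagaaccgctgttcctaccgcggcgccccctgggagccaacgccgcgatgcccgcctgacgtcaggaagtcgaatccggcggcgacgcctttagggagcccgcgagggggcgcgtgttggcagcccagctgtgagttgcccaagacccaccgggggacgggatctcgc
DHCR7: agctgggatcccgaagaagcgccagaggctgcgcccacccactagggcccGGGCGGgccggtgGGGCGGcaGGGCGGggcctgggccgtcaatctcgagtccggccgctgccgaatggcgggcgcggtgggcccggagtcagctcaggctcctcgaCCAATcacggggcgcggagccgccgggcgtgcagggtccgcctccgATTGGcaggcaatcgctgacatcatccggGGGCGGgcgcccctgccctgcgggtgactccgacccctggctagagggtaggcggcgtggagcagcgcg
FADS2: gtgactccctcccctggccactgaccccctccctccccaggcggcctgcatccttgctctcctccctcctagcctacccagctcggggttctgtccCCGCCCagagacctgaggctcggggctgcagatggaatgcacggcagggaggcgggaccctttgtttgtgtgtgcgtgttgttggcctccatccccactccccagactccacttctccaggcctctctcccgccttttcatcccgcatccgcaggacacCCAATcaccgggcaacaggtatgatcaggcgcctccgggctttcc
HSD17B7: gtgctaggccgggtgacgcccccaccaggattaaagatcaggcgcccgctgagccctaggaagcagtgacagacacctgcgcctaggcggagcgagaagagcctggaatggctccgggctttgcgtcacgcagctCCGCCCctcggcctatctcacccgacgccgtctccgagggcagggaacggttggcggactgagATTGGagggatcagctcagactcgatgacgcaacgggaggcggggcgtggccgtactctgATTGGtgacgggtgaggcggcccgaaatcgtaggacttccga
SREBF1: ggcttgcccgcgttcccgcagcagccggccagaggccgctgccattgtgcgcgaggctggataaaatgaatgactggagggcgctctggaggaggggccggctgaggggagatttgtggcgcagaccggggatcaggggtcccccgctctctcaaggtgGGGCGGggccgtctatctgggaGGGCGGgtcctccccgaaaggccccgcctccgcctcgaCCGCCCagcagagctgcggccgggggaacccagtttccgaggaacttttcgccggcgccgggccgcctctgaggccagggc
SREBF2: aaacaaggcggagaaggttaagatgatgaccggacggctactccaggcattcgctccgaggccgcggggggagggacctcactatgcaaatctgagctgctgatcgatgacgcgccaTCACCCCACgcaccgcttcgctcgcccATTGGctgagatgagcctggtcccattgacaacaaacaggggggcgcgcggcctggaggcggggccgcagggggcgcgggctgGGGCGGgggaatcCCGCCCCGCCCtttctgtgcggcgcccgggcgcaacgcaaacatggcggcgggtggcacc

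RefSeq promoters were matched for 25 of the 29 members, as 34 windows, and FDFT1, SQLE, ACAT2 and FASN had none in the table used. The NF-Y box was in 24 of the 34 windows, or 70.6%, against 34.6% of 35116 promoters of the same length. The GC box was in 30 of the 34, or 88.2%, against 45% of all promoters. The sterol regulatory element consensus was in 1 of the 34, that of SREBF2, against 1.13% of all. The E-box CACGTG was in 4 of the 34, or 11.8%, those of INSIG1, LSS and SC5D, against 7.26% of all. Among the promoters printed, STARD4 and DHCR7, which rose in the knockout, and FADS2 and HSD17B7, which fell, all hold an NF-Y box and a GC box. These are matches of letters, and the lack of a match says only that these letters are not in this window. The FADS1 and FADS2 start sites face each other on opposite strands of chromosome 11, 599 bases apart.

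In control cells 3 of the 7 fatty acid enzymes were the most abundant members per length of transcript, and the other 4 ranked 7, 11, 14 and 24 of 29. Per-length values (RPKM, which is CPM per kilobase of exon) put ACLY highest, at 71.1 ± 1.16 (SD, n = 3), then SCD, the stearoyl-CoA desaturase, at 61.0 ± 0.225 and FASN, the fatty acid synthase, at 34.6 ± 1.55. These 3 did not overlap in their libraries. ELOVL6, at 12.2 ± 0.334 RPKM, ACACA, at 9.56 ± 0.330 RPKM, and FADS2, at 2.61 ± 0.0786 RPKM, lay well below them. EBP, a sterol isomerase, ranked 4 at 21.9 ± 0.353 RPKM, and PMVK, FDPS and FADS1 lay between 19.9 and 20.5 RPKM with overlapping libraries. SREBF2, at 6.08 ± 0.0293 RPKM, was above SREBF1, at 5.10 ± 0.105 RPKM. The sterol carrier STARD4, at 2.19 ± 0.149 RPKM, and the mevalonate enzymes MVK, at 1.49 ± 0.0773 RPKM, and MVD, at 1.32 ± 0.124 RPKM, were near the bottom. TM7SF2, a sterol reductase, and CYP51A1, the lanosterol demethylase, were lowest, at 0.571 ± 0.0670 and 0.541 ± 0.0637 RPKM, and did not differ beyond their spread. For CYP51A1, 79.4% of its exon bases also belong to exons of AC000120.2 on the same strand, a gene model listed at 0 to 1 count per library. How the counting treated reads shared by overlapping genes is not given, so its level is uncertain.

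**Figure D1:**
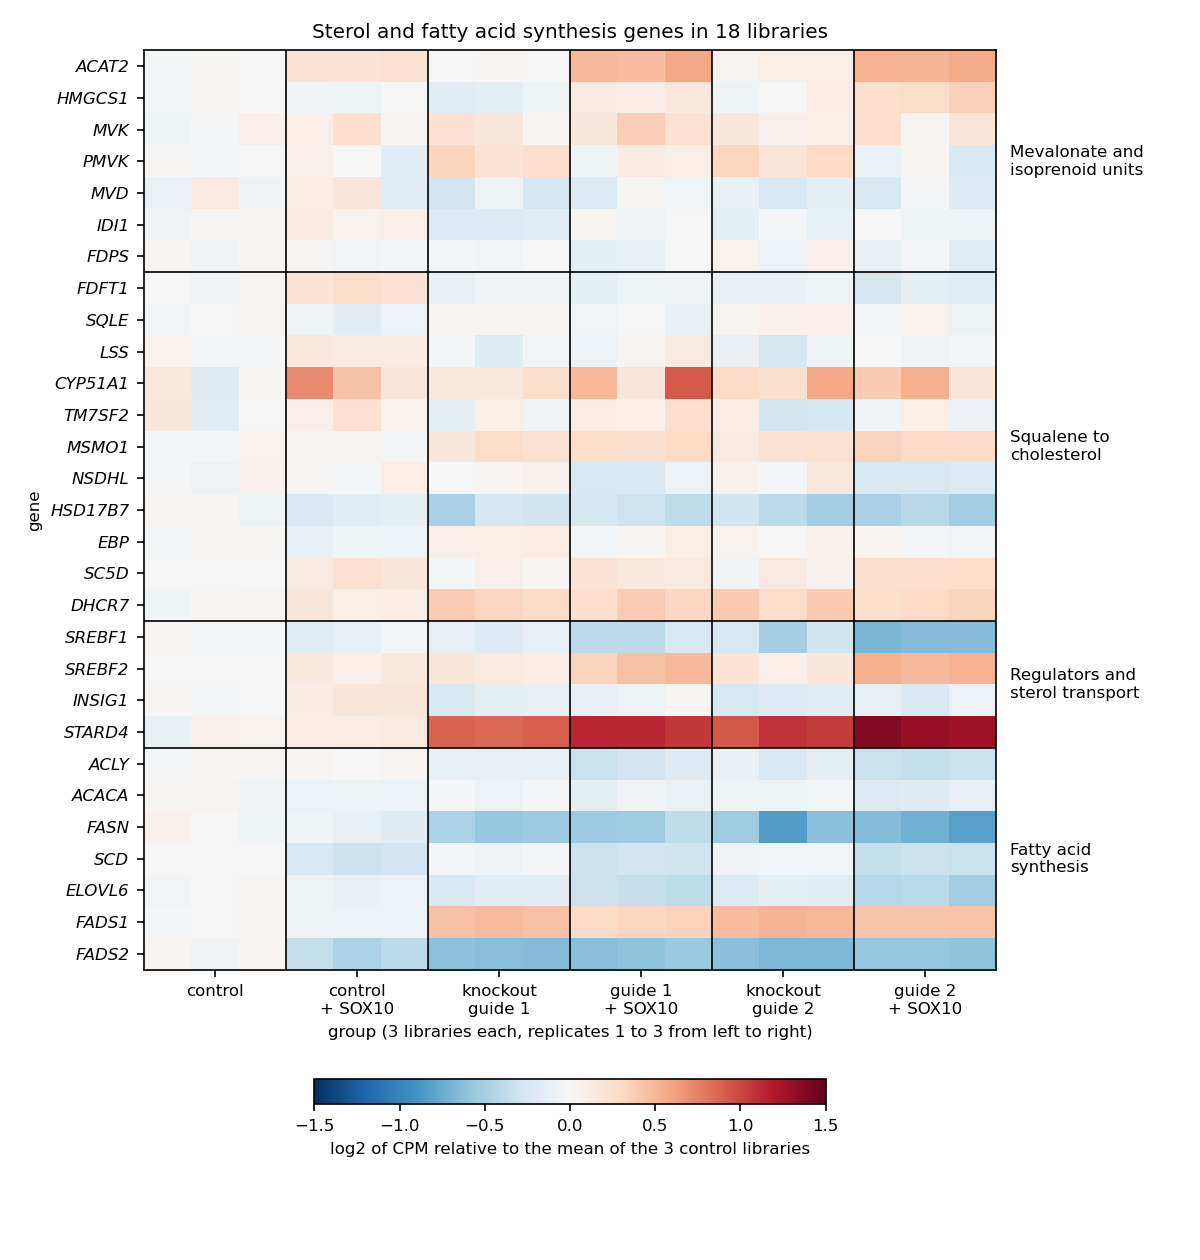
Each row is a gene, each column a library of the 6 groups, and colour gives log2 of CPM relative to the mean of the 3 control libraries, with genes ordered by role. STARD4 and FADS1 are above control in every knockout library, with and without SOX10, and FASN and FADS2 are below it.

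Knockout of TADA2B raised some genes of both branches and lowered others. STARD4 and FADS1 rose most and FADS2 and FASN fell most. Taking the mean of both guides against control, 6 members rose, where 28.6% of all genes tested rose, and 9 members fell, where 29.5% of all genes did. Those shares are close to the background. None of the 29 changed by 2-fold or more, and their median log2 fold change was -0.04 against -0.01 for all genes. In bulk RNA, fewer cells that express a gene and less of its RNA per cell cannot be told apart. The test was edgeR's quasi-likelihood F test with Benjamini-Hochberg adjustment over all genes tested, and a change was called at an adjusted p under 0.05. The split depends on scaling. With library size alone in place of TMM factors, the median of all genes in the knockout moved from -0.01 to 0.15 log2, 18 members rose and 3 fell, and 43.3% of all genes rose and 16.8% fell. The 3 that fell on that scale as well were HSD17B7, FASN and FADS2. The knockout changes below are on the TMM scale, relative to a median near 0.

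STARD4, which carries cholesterol between membranes, had the largest change of the 29. Its control libraries held 11.4, 13.0 and 12.9 CPM, those of guide 1 held 22.8, 22.3 and 23.1 CPM and those of guide 2 held 23.7, 26.4 and 25.7 CPM. Every knockout library was above every control library. The rise was 1.93-fold, or 0.95 ± 0.0490 (SE) on the log2 scale, with an edgeR adjusted p of 2.74e-20. Of its exon bases, 2.18% overlap STARD4-AS1 on the opposite strand, which held 28 to 323 counts per library.

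The genes of both sterol-responsive factors moved apart. SREBF1 held 41.9, 40.3 and 40.6 CPM in control cells, 37.6, 35.9 and 37.4 CPM with guide 1 and 34.8, 28.9 and 33.2 CPM with guide 2. SREBF2 held 46.1, 45.7 and 46.1 CPM in control cells, 52.0, 50.6 and 49.6 CPM with guide 1 and 52.8, 49.1 and 51.6 CPM with guide 2. All knockout libraries were below control for SREBF1 and above it for SREBF2. SREBF1 fell by 0.24 ± 0.0432 log2 (edgeR adjusted p = 5.81e-06) and SREBF2 rose by 0.15 ± 0.0339 log2 (edgeR adjusted p = 0.000224). Without guide 2 replicate 2, where SREBF1 was lowest, the fall of SREBF1 was -0.21 log2 with an edgeR adjusted p of 6.09e-06. With library size alone its fall did not pass the threshold. The ratio of SREBF2 to SREBF1 CPM within a library, which no scaling touches, was 1.10 to 1.14 in control cells, 1.32 to 1.41 with guide 1 and 1.52 to 1.70 with guide 2. Of the exon bases of SREBF1, 6.92% overlap RAI1 on the opposite strand, which held 2642 to 4225 counts per library. For SREBF2, 3.71% overlap SREBF2-AS1 on the opposite strand, which held 201 to 354 counts. INSIG1, the retention protein that is itself an SREBP target, fell by 0.18 ± 0.0486 log2 on the TMM scale (edgeR adjusted p = 0.00142) and did not pass the threshold with library size alone.

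**Figure D2:**
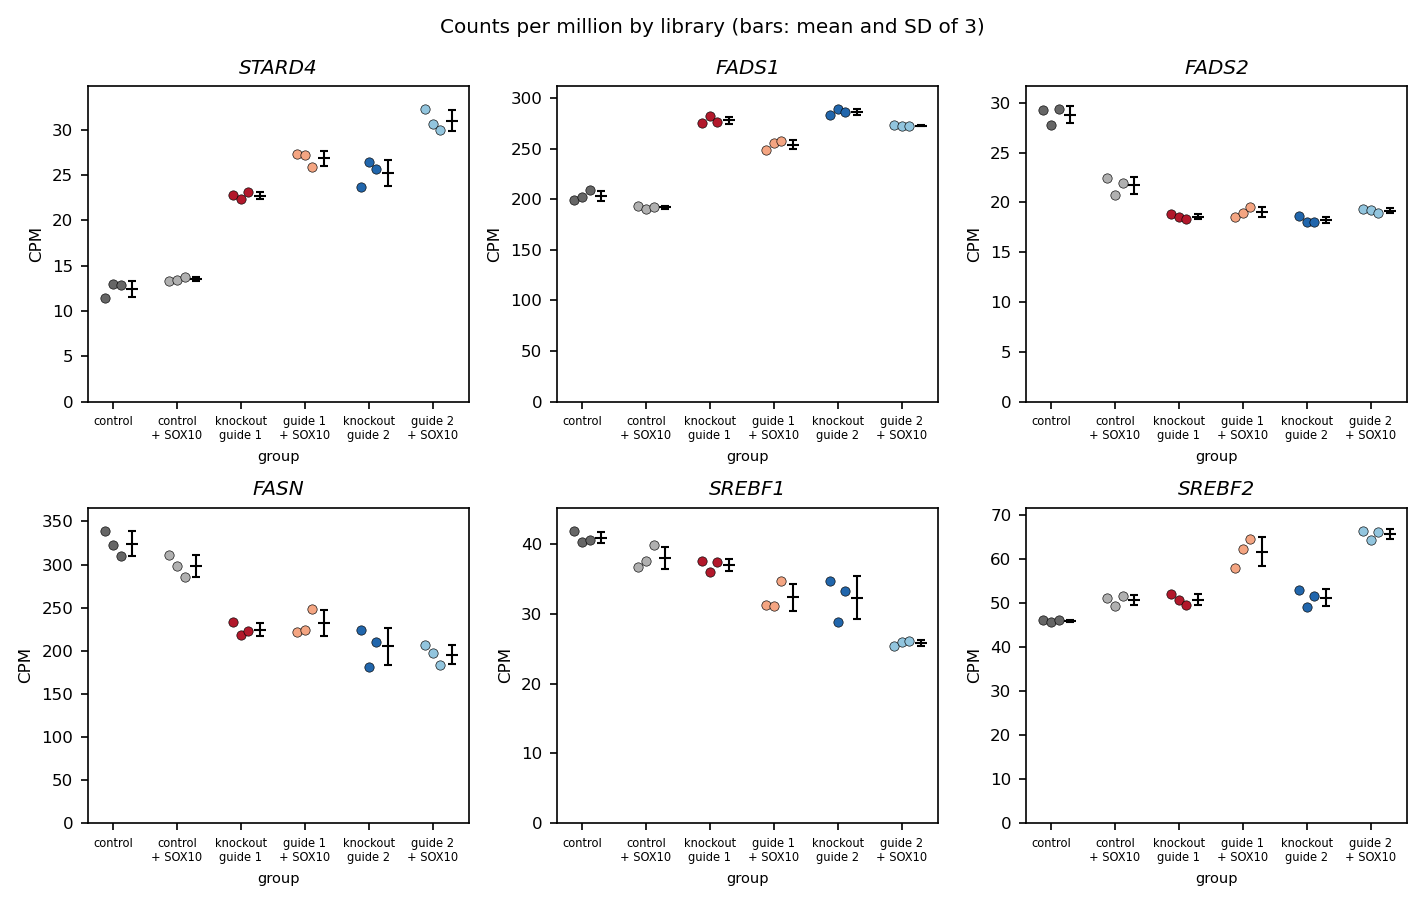
Points are CPM of single libraries in each of the 6 groups, and bars are the mean and SD of 3, on axes that start at 0. STARD4, FADS1 and SREBF2 lie higher, and FADS2, FASN and SREBF1 lower, in the knockout groups than in control.

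In the mevalonate pathway, 1 of 7 genes rose and 1 fell in the knockout, where 28.6% of all genes rose and 29.5% fell. Scaled by library size alone, 5 rose and 0 fell by edgeR, where 43.3% and 16.8% of all genes did. PMVK, the phosphomevalonate kinase, held 26.4, 25.9 and 26.2 CPM in control libraries, 32.9, 30.3 and 31.1 CPM in those of guide 1 and 32.9, 29.6 and 32.1 CPM in those of guide 2. Its knockout libraries were all above control, by 0.27 ± 0.0515 log2 (edgeR adjusted p = 2.95e-05). IDI1, the isopentenyl diphosphate isomerase, fell by 0.14 ± 0.0341 log2 (edgeR adjusted p = 0.000626), with overlapping libraries, and stood at 0.019 log2 with library size alone. The thiolase ACAT2, the synthase HMGCS1, the kinase MVK, the decarboxylase MVD and the prenyl synthase FDPS did not pass the threshold, with log2 values of 0.04, -0.06, 0.13, -0.19 and -0.00015.

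From farnesyl diphosphate to cholesterol, 2 of 11 genes rose and 2 fell in the knockout, where 28.6% and 29.5% of all genes did. When scaled by library size alone, 8 rose and 1 fell, where 43.3% and 16.8% of all genes did. HSD17B7, a sterol ketoreductase, held 14.6, 14.6 and 13.6 CPM in control libraries, 10.1, 11.8 and 11.6 CPM in those of guide 1 and 11.6, 10.9 and 10.0 CPM in those of guide 2. No knockout library reached the lowest control library. The fall was 1.30-fold, or -0.37 ± 0.0583 log2, with an edgeR adjusted p of 5.33e-07. DHCR7, a sterol reductase at the end of the route, rose by 0.34 ± 0.0396 log2 (edgeR adjusted p = 8.24e-10) and MSMO1, a sterol methyl oxidase, by 0.21 ± 0.0395 log2 (edgeR adjusted p = 1.69e-05), both with all knockout libraries above control. FDFT1, the squalene synthase, fell by 0.09 ± 0.0294 log2 (edgeR adjusted p = 0.0102), but with library size alone it stood higher, at 0.069 log2 (edgeR adjusted p = 0.0391), so no direction is given for it. Its call was also lost without control replicate 3, at -0.065 log2. The squalene epoxidase SQLE, the cyclase LSS, CYP51A1, TM7SF2, the dehydrogenase NSDHL, EBP and the desaturase SC5D did not pass the threshold, with log2 values from -0.11 to 0.28. EBP passed it with DESeq2, RLE size factors, library size alone, a filter on mean CPM and only the groups compared.

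In the fatty acid branch, 4 of 7 genes fell, where 29.5% of all genes fell, 1 rose, where 28.6% rose, and 2 did not pass the threshold. With library size alone, 2 fell and 3 rose, where 16.8% and 43.3% of all genes did, so the count for this branch depends on scaling, while the calls for FASN, FADS2 and FADS1 held on both scales. FASN held 339, 323 and 310 CPM in control cells, 233, 218 and 222 CPM with guide 1 and 224, 181 and 210 CPM with guide 2. All knockout libraries were below control. The fall was 1.51-fold, or -0.59 ± 0.0624 log2 (edgeR adjusted p = 1.74e-06), and -0.56 log2 without guide 2 replicate 2. ACLY and the elongase ELOVL6 fell by 0.14 ± 0.0259 and 0.18 ± 0.0287 log2 (edgeR adjusted p = 8.26e-06 and 5.85e-07), and with library size alone ACLY stood at 0.013 log2 and ELOVL6 did not pass the threshold. SCD and the acetyl-CoA carboxylase ACACA, at -0.04 and -0.06 log2, did not pass the threshold, but with library size alone both were called higher.

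FADS1 and FADS2, neighbouring genes for the delta-5 and delta-6 desaturases of polyunsaturated fatty acids, moved in opposite directions. FADS2 held 29.3, 27.8 and 29.3 CPM in control cells, 18.8, 18.5 and 18.3 CPM with guide 1 and 18.6, 18.1 and 18.1 CPM with guide 2. FADS1 held 199, 202 and 209 CPM in control cells, 276, 282 and 276 CPM with guide 1 and 283, 289 and 286 CPM with guide 2. Neither gene's knockout libraries overlapped control. FADS2 fell 1.57-fold, or -0.65 ± 0.0410 log2 (edgeR adjusted p = 2.21e-17), and FADS1 rose 1.39-fold, or 0.47 ± 0.0226 log2 (edgeR adjusted p = 2.04e-21). The ratio of FADS1 to FADS2 CPM within a library was 6.81 to 7.28 in control cells, 14.6 to 15.3 with guide 1 and 15.2 to 16.0 with guide 2. Their exons share 490 bases on opposite strands, and the strand setting of the counting is not given, so some reads of each could have been counted for the other. FADS2 also shares 49 exon bases with FEN1 on the same strand, which held 14374 to 20810 counts per library.

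Each guide was also compared with the same 3 control libraries, so the comparisons are not independent. With guide 1, 7 members rose and 9 fell, where 26.2% and 26.4% of all genes did. With guide 2, 7 rose and 10 fell, where 27.9% and 28.1% of all genes did. With library size alone these became 15 and 3 for guide 1, where 39.8% and 14.7% of all genes were called, and 17 and 4 for guide 2, where 42.1% and 16.5% were. STARD4 rose by 0.87 ± 0.0550 log2 with guide 1 and 1.02 ± 0.0546 log2 with guide 2, FASN stood at -0.53 and -0.66 log2, FADS1 at 0.45 and 0.49 log2 and FADS2 at -0.63 and -0.66 log2. Set against each other, the guides differed for 1 member higher with guide 2, where 2.65% of all genes were higher, and 1 lower, where 6.09% were lower. SREBF1 was lower with guide 2, by -0.19 ± 0.0502 log2 (edgeR adjusted p = 0.00809), and no guide 2 library reached a guide 1 library. Without guide 2 replicate 2 this became -0.12 log2 and did not pass the threshold (edgeR adjusted p = 0.118). HMGCS1, the hydroxymethylglutaryl-CoA synthase, held 43.9, 44.7 and 47.3 CPM with guide 1 and 47.2, 49.3 and 53.5 CPM with guide 2, an overlap, and was higher with guide 2 by 0.14 ± 0.0414 log2 (edgeR adjusted p = 0.0209). That call was lost without guide 1 replicate 1 or 2 or guide 2 replicate 3. With SOX10 present in both, 3 members were higher and 2 lower with guide 2, where 5.05% and 7.01% of all genes were. SREBF1 was 25.4, 26.0 and 26.2 CPM with guide 2 and SOX10 against 31.3, 31.2 and 34.6 CPM with guide 1 and SOX10, which do not overlap (-0.32 ± 0.0516 log2, edgeR adjusted p = 9.67e-06).

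**Figure D3:**
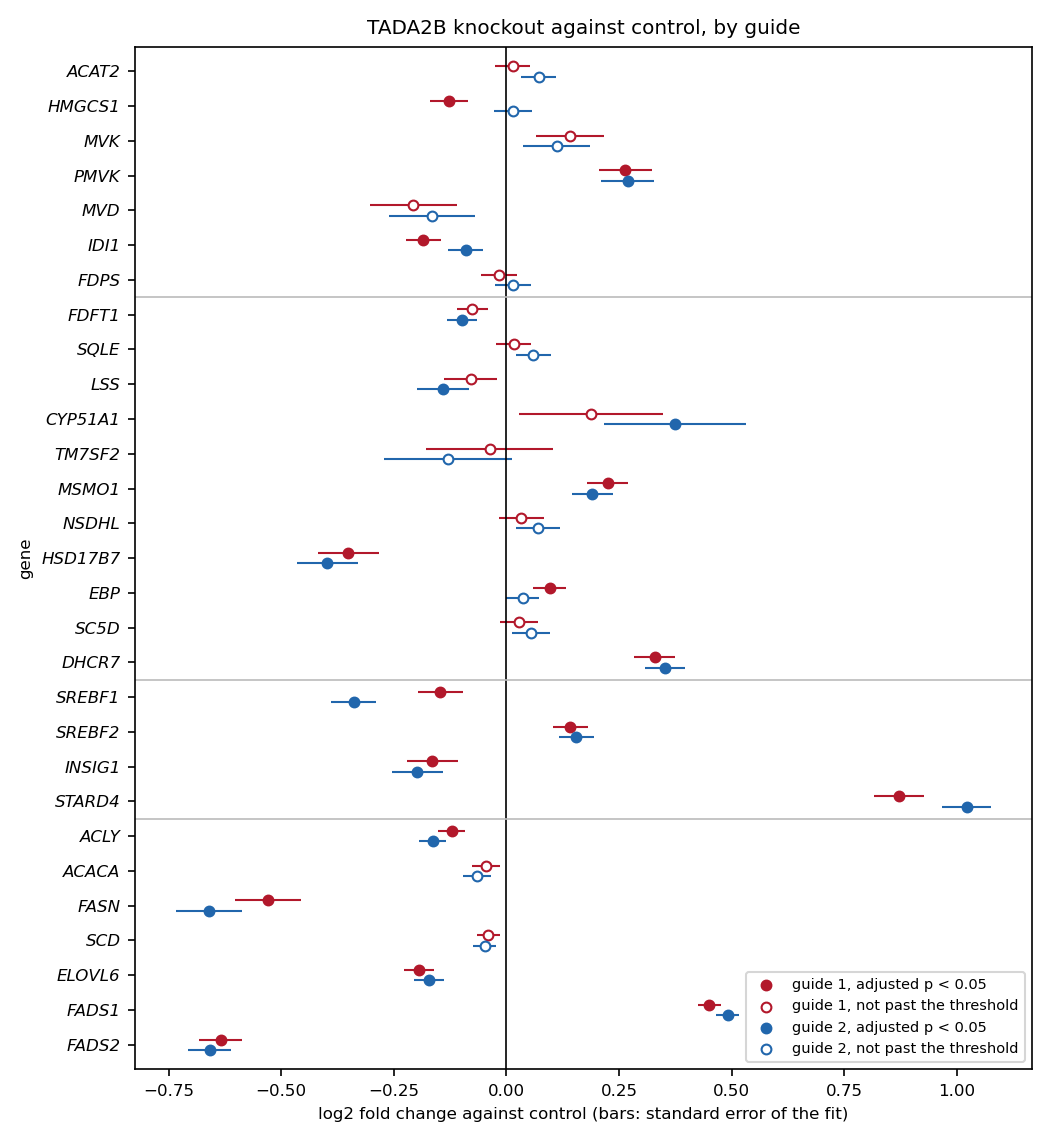
Points are log2 fold changes of each gene for guide 1 (red) and guide 2 (blue) against the same 3 control libraries, bars are the standard error of the fit, and filled points passed an adjusted p of 0.05. The points of both guides lie close together for most genes, with STARD4 and FADS1 farthest right and FADS2 and FASN farthest left.

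SOX10 overexpression in control-guide cells lowered part of the fatty acid branch, while genes of the sterol branch went both ways. Of the 29 members 7 rose, where 17.3% of all genes rose, and 8 fell, where 17.2% did. From farnesyl diphosphate to cholesterol 4 of 11 rose and 3 fell, and in the mevalonate pathway 1 of 7 rose and 0 fell. With no filter on low counts, 2 members fell in place of 8, and SQLE, HSD17B7, EBP, ACACA, ELOVL6 and FADS1 no longer passed the threshold. In the fatty acid branch 5 of 7 fell and none rose by edgeR, at an adjusted p under 0.05. SCD held 280, 262 and 269 CPM with SOX10 against 328, 327 and 326 CPM in control cells, a fall of 0.28 ± 0.0256 log2 with no overlap (edgeR adjusted p = 6.25e-12). FADS2 held 22.5, 20.8 and 21.9 CPM with SOX10, also below every control library, and fell by 0.41 ± 0.0479 log2 (edgeR adjusted p = 3.02e-09). FADS1, ACACA and ELOVL6 fell by 0.08 to 0.09 log2, and each of these 3 calls was also lost without single libraries, as given below. In the sterol branch FDFT1 rose from 86.2, 82.3 and 88.3 CPM to 98.9, 103 and 99.2 CPM, by 0.23 ± 0.0338 log2 (edgeR adjusted p = 4.80e-07), and ACAT2 from 35.0, 35.7 and 35.4 CPM to 40.8, 40.8 and 41.3 CPM, by 0.21 ± 0.0384 log2 (edgeR adjusted p = 1.77e-05). Neither overlapped control. SREBF2, SC5D, DHCR7, INSIG1 and CYP51A1 made up the other risers, and SQLE, EBP and HSD17B7 the other members that fell.

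CYP51A1 had the largest value among them, 2.16, 1.71 and 1.95 CPM in control cells and 3.15, 2.62 and 2.19 CPM with SOX10. Its rise, 0.45 ± 0.158 log2 (edgeR adjusted p = 0.0224), was lost when control replicate 2 or 3, or SOX10 replicate 1, was left out. Leaving out a library in turn gave 5 to 6 members higher and 3 to 6 lower in this comparison. Without control replicate 1 the calls of HSD17B7, DHCR7 and ACACA were lost, without replicate 2 those of SQLE, HSD17B7, EBP, INSIG1, ACACA and ELOVL6, and without replicate 3 those of SQLE, EBP, ELOVL6 and FADS1. Without SOX10 replicate 1 those of HSD17B7, EBP, DHCR7 and ACACA were lost, without replicate 2 those of SQLE, HSD17B7, EBP, INSIG1, ACACA and ELOVL6, and without replicate 3 those of EBP, INSIG1, ACACA and ELOVL6. Their signs held throughout. The calls of FDFT1, SC5D, SREBF2, ACAT2, SCD and FADS2 held in each alternative run. For ACAT2, 52.3% of exon bases overlap exons on the opposite strand. Most of these belong to the gene models SOD2 and SOD2-OT1, which held at most 3 counts per library. TCP1, which held 31749 to 50361 counts per library, shares 397 of the 4299 bases.

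In TADA2B knockout cells, SOX10 raised ACAT2, SREBF2 and HMGCS1 and lowered SCD, PMVK and SREBF1. Taking the mean of both guides, 8 members rose, where 28.1% of all genes rose, and 11 fell, where 28.1% did. Within guide 1 the counts were 7 and 7, where 22% and 21.7% of all genes were called, and within guide 2 they were 6 and 10, where 24.6% and 24% were. ACAT2 held 35.4, 36.2 and 35.5 CPM with guide 1 and 49.7, 48.9 and 52.6 CPM when SOX10 was added, and 36.4, 37.6 and 37.5 CPM with guide 2 and 50.8, 50.2 and 52.1 CPM when it was added. SOX10 set the libraries of each guide fully apart. The rise was 1.39-fold, or 0.48 ± 0.0266 log2 (edgeR adjusted p = 3.20e-19).

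SREBF2 rose again with SOX10, to 58.0, 62.2 and 64.6 CPM with guide 1 and 66.3, 64.3 and 66.1 CPM with guide 2, by 0.32 ± 0.0269 log2 (edgeR adjusted p = 1.63e-13). SREBF1 fell further, by 0.26 ± 0.0360 log2 (edgeR adjusted p = 6.06e-08). The ratio of SREBF2 to SREBF1 CPM was 1.29 to 1.39 in control cells with SOX10, 1.86 to 2.00 with guide 1 and SOX10 and 2.47 to 2.61 with guide 2 and SOX10. The lowest ratio among the knockout libraries with SOX10 was thus above the highest of any other group.

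HMGCS1 reached 54.7, 53.6 and 55.2 CPM with guide 1 and SOX10 and 58.9, 60.1 and 63.3 CPM with guide 2 and SOX10, a rise of 0.27 ± 0.0291 log2 (edgeR adjusted p = 1.00e-10) with no overlap. SCD fell to 262, 268 and 266 CPM and to 255, 261 and 259 CPM from 321, 315 and 320 CPM and 315, 317 and 317 CPM, by 0.28 ± 0.0181 log2 (edgeR adjusted p = 6.20e-17). Its knockout libraries with SOX10 were all below those without. PMVK fell to 25.0, 28.5 and 28.1 CPM and to 24.4, 26.7 and 22.3 CPM, by 0.29 ± 0.0413 log2 (edgeR adjusted p = 1.98e-07), also with no overlap. STARD4 rose further, by 0.27 ± 0.0360 log2 (edgeR adjusted p = 2.64e-08), and SC5D, IDI1, LSS and MSMO1 rose by 0.08 to 0.17 log2. NSDHL, ELOVL6, ACLY, FADS1, FDPS, ACACA, SQLE and EBP fell, by between 0.06 and 0.26 log2. The call of LSS was lost without guide 1 replicate 2 or guide 1 with SOX10 replicate 3, that of MSMO1 without replicate 1 of either guide, that of SQLE without 4 of the libraries in turn and that of EBP without 9 of them.

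**Figure D4:**
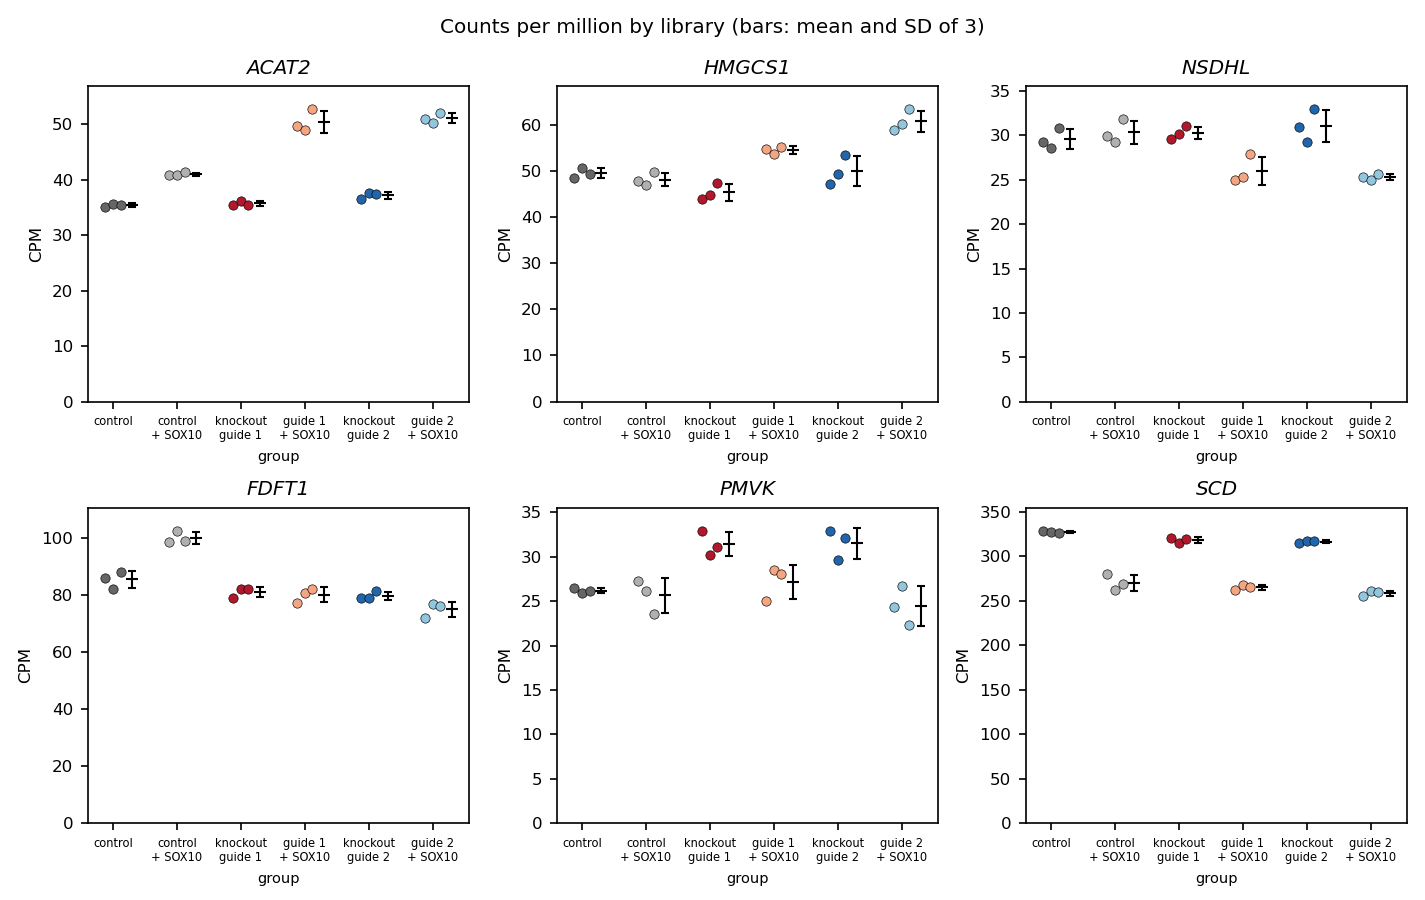
Points are CPM of single libraries in each of the 6 groups, and bars are the mean and SD of 3, on axes that start at 0. ACAT2 and SCD differ with SOX10 in all 3 backgrounds, and HMGCS1, NSDHL and PMVK in the knockout backgrounds, while FDFT1 is higher with SOX10 in control-guide cells, lower with it in guide 2 and overlapping in guide 1.

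The SOX10 effect was then compared between knockout and control-guide cells as an interaction. With the construct, mean SOX10 RNA went from 354 to 452 CPM in control-guide cells. It went from 83.6 to 291 CPM with guide 1 and from 43.4 to 246 CPM with guide 2. The knockout and the size of the SOX10 rise thus cannot be told apart in this contrast. The SOX10 effect was higher in the knockout for 4 members, where 18.1% of all genes were, and lower for 6, where 15.1% were. FADS2 differed most. It fell with SOX10 in control-guide cells, and in the knockout it held 18.6, 18.9 and 19.5 CPM with guide 1 and SOX10 and 19.3, 19.3 and 19.0 CPM with guide 2 and SOX10, 0.05 ± 0.0348 log2 above the knockout alone, which did not pass the threshold (edgeR adjusted p = 0.192). The interaction was 0.46 ± 0.0592 log2 (edgeR adjusted p = 3.23e-08). HMGCS1 (0.32 ± 0.0509 log2), ACAT2 (0.27 ± 0.0467 log2) and SREBF2 (0.18 ± 0.0473 log2) were the other members with a higher SOX10 effect in the knockout, with edgeR adjusted p of 3.15e-06, 1.36e-05 and 0.00272.

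Among the 6 with a lower SOX10 effect in the knockout, NSDHL held 29.3, 28.6 and 30.9 CPM in control cells and 30.0, 29.3 and 31.8 CPM with SOX10. Guide 1 libraries held 29.6, 30.2 and 31.0 CPM without SOX10 and 25.0, 25.3 and 27.9 CPM with it. Guide 2 libraries held 30.9, 29.3 and 32.9 CPM without SOX10 and 25.3, 25.0 and 25.7 CPM with it. The combination is thus the state in which NSDHL was low, and no library of the combination reached those of the other groups. Its interaction was -0.29 ± 0.0605 log2 (edgeR adjusted p = 0.000150). FDFT1 held 79.1, 82.4 and 82.2 CPM with guide 1 and 77.3, 81.0 and 82.3 CPM when SOX10 was added, and 79.2, 79.1 and 81.5 CPM with guide 2 and 72.1, 77.0 and 76.3 CPM when it was added. With SOX10 the libraries overlapped within guide 1 (-0.02 log2, edgeR adjusted p = 0.713) and were all lower within guide 2 (-0.09 log2, edgeR adjusted p = 0.0273). The mean over both guides was -0.05 log2 (edgeR adjusted p = 0.0542), which passed the threshold with DESeq2, RLE size factors, library size alone and the replicate block, and without guide 1 with SOX10 replicate 3. The interaction was -0.28 ± 0.0414 log2 (edgeR adjusted p = 5.66e-07). PMVK (-0.26 log2), ACLY (-0.19 log2), DHCR7 (-0.16 log2) and ELOVL6 (-0.13 log2) completed the 6. The calls of DHCR7 and ELOVL6 were lost without control replicate 1 (-0.13 and -0.11 log2) and without SOX10 replicate 1 of the control-guide cells (-0.13 and -0.11 log2). SREBF1, at -0.15 log2, just missed the threshold (edgeR adjusted p = 0.0535). It passed with DESeq2, RLE size factors, library size alone, no filter, a filter on mean CPM and the replicate block, and at -0.18 log2 without guide 2 replicate 2 (edgeR adjusted p = 0.00514). For SCD the interaction was -0.00055 ± 0.0314 log2 and did not pass the threshold (edgeR adjusted p = 0.994).

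**Figure D5:**
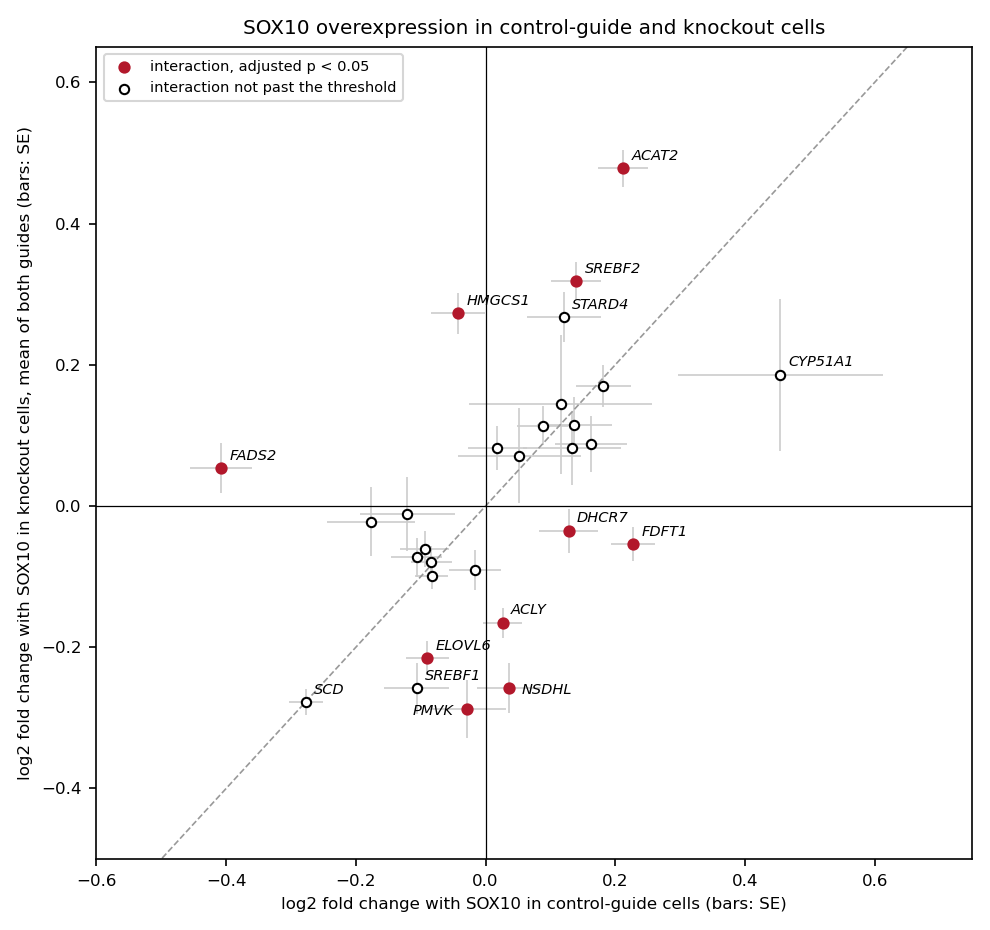
The x axis is the log2 fold change with SOX10 in control-guide cells and the y axis that in knockout cells as the mean of both guides, with standard errors as bars and the line of equal effects dashed. Red points passed an adjusted p of 0.05 for the interaction, and FADS2, HMGCS1 and ACAT2 lie farthest above the line.

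Knockout cells with SOX10 were also set against control cells without it. Here 10 members were higher, where 30% of all genes were, and 11 lower, where 27.9% were, and with library size alone 15 were higher and 7 lower, where 43.5% and 15.6% of all genes were. In the fatty acid branch 6 of 7 genes were lower and FADS1 was higher by 0.37 ± 0.0225 log2. The values of the 6 were -0.61 log2 for FASN, -0.59 for FADS2, -0.40 for ELOVL6, -0.32 for SCD, -0.31 for ACLY and -0.13 for ACACA, and with library size alone 5 of them were called lower, without ACACA. STARD4 was 1.21 ± 0.0490 log2 above control, ACAT2 0.52 ± 0.0335, SREBF2 0.47 ± 0.0339 and SREBF1 -0.50 ± 0.0434 log2, all with edgeR adjusted p of 3.77e-13 or less.

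Within SOX10-overexpressing cells, the knockout was compared with the control guide in libraries that share none with the knockout comparison above. Of the members 8 were higher, where 28.2% of all genes were, and 11 lower, where 26.7% were, and with library size alone 14 were higher and 7 lower, where 43.4% and 14.8% of all genes were. On the TMM scale, 5 members were higher in both comparisons, which is 5 of 6 without SOX10 and 5 of 8 with it. These were MSMO1, DHCR7, STARD4, SREBF2 and FADS1. A further 9 were lower in both, which is 9 of 9 without SOX10 and 9 of 11 with it, and 0 members were called in opposite directions. Over all genes, 66.2% of those higher without SOX10 and 67.1% of those higher with it were higher in both, 64.6% and 71.1% were the like shares for lower, and 5.41% of those higher and 7.57% of those lower without SOX10 were called the opposite way with it. STARD4 was higher by 1.09 ± 0.0480 log2, FADS1 by 0.45 ± 0.0226 log2, and FASN and FADS2 stood at -0.49 and -0.19 log2.

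Genes that act around the pathway were read from 4 further lists. Of 10 genes listed around SREBP processing and retention, 7 rose, where 28.6% of all genes rose, and 2 fell, where 29.5% fell, with a median of 0.20 log2 against -0.01 for all genes. On library size alone, 8 rose and 0 fell, where 43.3% and 16.8% of all genes did. TRIM21, an E3 ubiquitin ligase on the list that is best known as an antibody receptor of the cytosol and not for SREBP handling, rose by 0.76 ± 0.0731 log2, ERLIN2, a sterol-sensing scaffold of the endoplasmic reticulum, by 0.33 ± 0.0284, the site-1 protease MBTPS1 by 0.22 ± 0.0265 and the ligase RNF139 by 0.26 ± 0.0343 log2, with edgeR adjusted p of 1.22e-08 or less. SCAP, the SREBP escort, and UBE2G2 were the 2 that fell. With SOX10 in knockout cells 4 of the 10 rose and 5 fell, where 28.1% of all genes went each way.

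Of 12 genes that use isoprenoids for prenylation, ubiquinone or dolichol, 3 rose and 4 fell in the knockout, close to the 28.6% and 29.5% of all genes. FNTB, a farnesyltransferase subunit, fell by 0.53 ± 0.0821 log2 (edgeR adjusted p = 6.42e-07) and rose with SOX10 by 0.44 ± 0.0917 log2 in control-guide cells and 0.67 ± 0.0669 log2 in knockout cells. The partner subunit FNTA rose in the knockout by 0.22 ± 0.0355 log2 (edgeR adjusted p = 1.32e-06).

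Of 14 tested genes for sterol uptake, storage and export, 6 rose and 6 fell in the knockout, where 28.6% and 29.5% of all genes did, and CH25H did not pass the filter on low counts. LIPA, the lysosomal acid lipase, held 52.6, 55.1 and 52.9 CPM in control cells, 87.1, 93.6 and 90.5 CPM with guide 1 and 92.4, 94.4 and 90.3 CPM with guide 2, a rise of 0.77 ± 0.0302 log2 with no overlap (edgeR adjusted p = 1.94e-24). With SOX10 added to the knockout it fell by 0.61 ± 0.0237 log2, while in control-guide cells SOX10 raised it by 0.19 ± 0.0344 log2, an interaction of -0.80 ± 0.0418 log2 (edgeR adjusted p = 3.01e-19). NR1H3, the sterol-sensing receptor LXR alpha, rose in the knockout by 0.92 ± 0.0922 log2 and SOAT1, which esterifies cholesterol, by 0.40 ± 0.0263 log2. ABCG1, a sterol exporter, fell with SOX10 by 1.76 ± 0.250 log2 in control-guide cells, from 0.712 to 0.784 CPM down to 0.164 to 0.269 CPM. CYP27A1, a sterol hydroxylase, and VLDLR, a lipoprotein receptor, rose with SOX10 in knockout cells by 1.57 ± 0.0854 and 1.31 ± 0.0607 log2.

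Of 25 genes for fatty acid supply, elongation and use, 10 rose and 7 fell in the knockout, where 28.6% and 29.5% of all genes did. With SOX10 in knockout cells 15 rose and 7 fell, where 28.1% of all genes went each way. The acyl-CoA synthetases, which activate fatty acids for use, differed among themselves. ACSL5 held 0.432, 0.563 and 0.538 CPM in control cells, 7.29, 7.62 and 7.83 CPM with guide 1 and 8.88, 8.88 and 8.91 CPM with guide 2, and 0.699 to 1.12 and 1.33 to 1.38 CPM when SOX10 was added to the knockouts. It rose by 4.00 ± 0.136 log2 in the knockout and fell by 2.88 ± 0.0887 log2 with SOX10 there (edgeR adjusted p = 1.47e-26 and 4.54e-28). ACSL3 fell in the knockout by 0.95 ± 0.0262 log2 and rose with SOX10 there by 0.45 ± 0.0222 log2. ACSL1 rose with SOX10 by 1.43 ± 0.0331 log2 in control-guide cells and by 1.05 ± 0.0236 log2 in knockout cells. FADS3, in the same desaturase family as FADS1 and FADS2, rose in the knockout by 0.72 ± 0.0440 log2 (edgeR adjusted p = 6.76e-18), and the elongase ELOVL2 rose with SOX10 in control-guide cells by 1.92 ± 0.0814 log2 (edgeR adjusted p = 1.39e-22).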

How the data were processed

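Poly(A) RNA of 18 A375 libraries in 6 groups of 3 was sequenced after KAPA Stranded mRNA-Seq preparation, per the labels' protocols. The authors deposited raw read counts for each gene, not normalized. HISAT2, HTSeq and genome build hg38 are named per the submitters' processing notes. Versions, annotation, strand setting and treatment of ambiguous reads were not given in the sources used here, so antisense, overlapping and near-identical genes cannot be fully told apart. Symbols and exon lengths came from GENCODE 29 by identifier, which matched 58676 of 58721.

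The counts were fitted in edgeR 4.0.16 (R 4.3.3) with TMM factors, filterByExpr (21060 genes kept), 6 group means, robust quasi-likelihood and 12 residual degrees of freedom. Benjamini-Hochberg adjustment ran over all genes tested within each of 12 contrasts, with calls at 0.05. SE is the absolute log2 fold change over the square root of F. The scripts were tested on simulated data. Alternatives were other scalings and filters, DESeq2 1.42.0, a replicate block, fewer groups and each library left out. The members and lists were chosen with earlier results of these data known. Values per library were given for the 5 called members with the largest change in each of 5 contrasts, for SREBF1 and SREBF2, and for TADA2B and SOX10 as ranges. Of each related list, up to 4 called genes with the lowest p were eligible in each contrast, and values of single libraries there and SCAP, UBE2G2 and CH25H were added after their values were seen. Promoter sequences came from RefSeq (GRCh38.p14). Of members called in the knockout, the 3 largest rises and falls with a promoter off chromosome 8 were printed, and SREBF2 for its sterol element.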

Additional observations from a re-analysis of the deposited data

Results flagged for a closer look

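The SOX10 effect differed between knockout and control-guide cells for 10 members, by edgeR's interaction test at an adjusted p under 0.05. That is 34.5% of the 29 members, close to the 33.3% of all genes tested. SOX10 RNA itself rose by a larger factor in the knockout, from a lower start, so knockout and SOX10 level cannot be told apart here. The SOX10 effect in the knockout minus that in control-guide cells was higher by 0.46 log2 for FADS2, 0.32 for HMGCS1, 0.27 for ACAT2 and 0.18 for SREBF2. It was lower for NSDHL at -0.29 log2, FDFT1 at -0.28, PMVK at -0.26, ACLY at -0.19, DHCR7 at -0.16 and ELOVL6 at -0.13. The knockout effect differed between the guides for SREBF1, at -0.19 log2 for guide 2 minus guide 1, and for HMGCS1, at 0.14 log2. Those are 6.90% of the members, where 8.74% of all genes tested differed between the guides. The call of SREBF1 was lost without guide 2 replicate 2. That of HMGCS1 was lost without guide 1 replicate 1 or 2 or guide 2 replicate 3, and with only the groups compared. The interaction of SREBF1, at -0.15 log2 (edgeR adjusted p = 0.0535), lay just outside the threshold and passed it under 6 of the alternative settings that kept all libraries.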

How the results depend on the processing

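Of 366 recomputed counts of called members, 333 stayed within 1.5 times the reported count. With library size alone, higher and lower members became 18 and 3 in the knockout, 15 and 3 with guide 1, 17 and 4 with guide 2, and 14 and 7 for the knockout within SOX10-overexpressing cells, 7 were lower for the knockout with SOX10 against control, 2 were higher for guide 2 against guide 1, and 1 was lower for that comparison with SOX10. On that scale, among members called in the knockout, IDI1 (0.019 log2), FDFT1 (0.069) and ACLY (0.013) turned sign. Of members not called on the TMM scale, HMGCS1, FDPS, ACACA and SCD went from values below 0 to being called higher. With no filter, 2 fell with SOX10 in control-guide cells and 5 were lower for guide 2 against guide 1 with SOX10. For guide 2 against guide 1, 2 were higher when genes needed a mean CPM of 1 and 2 with DESeq2, and 0 with only the groups compared, and with SOX10 4 were lower with DESeq2. The causes were not tested. Leaving out a library gave 3 to 6 lower with SOX10 in control-guide cells, 6 to 10 lower with SOX10 in guide 2, 0 to 2 higher and 0 to 1 lower for guide 2 against guide 1, and 1 to 4 lower for that comparison with SOX10. Where that left a group with 2 libraries the pooled spread was used. The 45 pairs of same-numbered libraries of different groups had correlations of -0.03 to 0.07, 0 of them over 0.1, so the numbers were not taken to pair the libraries, although 11 of 18 libraries correlated best with their own number, with 3 numbers to choose from. A replicate block gave 6 higher and 11 lower in the knockout, and 4 lower for guide 2 against guide 1 with SOX10. Of the calls, 9 of 15 in the knockout, 6 of 15 with SOX10 in control-guide cells, 15 of 19 with SOX10 in knockout cells, 8 of 10 interactions and 0 of 2 between guides held in every alternative run. CYP51A1 and TM7SF2, near 2 CPM, had the widest errors.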
